A study of Mus musculus with 2 samples.

Results

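Large resident cavity macrophages are the macrophages that live in the healthy pleural and peritoneal fluid. They are known for the transcription factor Gata6, which is maintained by retinoids from the surrounding stroma, for a high surface level of F4/80 (the product of Adgre1) and ICAM2, for the enzyme 12/15-lipoxygenase (Alox15), and for proliferating locally rather than being replaced from blood monocytes. They take up dying cells and, when the cavity is inflamed, clump and adhere to its lining, so that fewer are recovered from the fluid. Here the cells that carried this programme were singled out in a malignant pleural effusion, the tumour-laden fluid that gathers in the chest cavity, and compared with the other macrophages and monocytes of the same fluid that express complement C1q.

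The samples were 2 libraries of 1 group, live CD45+ CD11b+ leukocytes sorted from the pleural fluid of mice 10 days after 150000 cells of LLC, the mouse Lewis lung carcinoma line, were placed in the pleural cavity in 100 µl. The labels give no strain, age or sex and do not say how many mice a library holds; no library from tumour-free mice was analysed here. Members were the barcodes with at least 5 UMIs (unique molecular identifiers, counted transcripts) of Prg4, Alox15, Serpinb2, Cd5l and Fabp4 together and at least 2 of these 5 genes detected, with the neutrophil genes S100a8, S100a9 and Retnlg under 2% of UMIs and no UMI of Cd3d, Cd3e, Cd3g or Cd79a. The rule found 51 members among 3963 barcodes that passed the quality limits, 28 in library 1 and 23 in library 2. The comparison class, called other C1q barcodes here, was the 954 remaining barcodes with 10 or more UMIs of C1qa, C1qb and C1qc (352 and 602). Levels are given as CPM, the UMIs of a gene per 1000000 UMIs of the class in that library.

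Members made up 2.51% of library 1 (exact 95% interval 1.67% to 3.61%) and 0.808% of library 2 (0.513% to 1.21%), a mean of 1.66% ± 1.2 (SD, n = 2). The smallest barcode in the files held 1999 UMIs in library 1 and 500 in library 2, and neutrophil-gated barcodes, with 2% or more neutrophil UMIs, were 7.53% and 51.5% of the libraries. Among barcodes with 2000 or more UMIs members were 2.51% and 1.61%, and without the neutrophil-gated barcodes, a denominator chosen after the data were seen, 2.71% and 1.67%. The libraries held 11543829 and 20322996 gene UMIs in all. The median depth of a member was 10805 UMIs (library 1) and 20251 (library 2), and that of another C1q barcode 11710 and 15415. The libraries shared 4 barcode sequences, none of them of a member. The labels do not say how many animals each library holds. No member and no other C1q barcode of library 1 had Xist UMIs, whereas 500 of the 589 other C1q barcodes on one side of library 2 had Xist without Y-linked UMIs, so the animals were at least in part different ones. The tests below take the library as a block. Their p-values thus measure how far the difference between members and other C1q barcodes varied between these 2 libraries, moderated across genes. The libraries come from an unknown number of animals, and this variation is in part perhaps technical.

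The members were chosen by the UMIs of 5 genes in these same barcodes, so those genes are given as levels only. Prg4, which encodes the lubricant lubricin, stood at 2344 and 3419 CPM in members of libraries 1 and 2 and at 23.9 and 8.52 in other C1q barcodes. Alox15 stood at 2347 and 4848 CPM against 22.8 and 13.2, and Serpinb2, an inhibitor of plasminogen activators, at 1087 and 873 against 12.7 and 5.8. Cd5l, a secreted scavenger protein of tissue macrophages, stood at 1093 and 549 CPM against 13.1 and 1.32. Fabp4, a fatty acid carrier, was the most uneven of the 5, at 131 and 440 CPM, and had a UMI in 11 of 28 and 22 of 23 members. Itga6 (integrin alpha 6, 415 and 522 CPM against 8.74 and 2.9) and Saa3 (an acute phase protein, 7413 and 4880 against 367 and 115), which earlier work on these data had given as marks of a like cluster, are also levels with no test. Neutrophil-gated barcodes held 0 and 2.54 CPM of Prg4 and 158 and 83.4 of Saa3, which gives the level of these transcripts in a cell type that should lack them.

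Members carried between 8 and 205 UMIs of the 5 rule genes in library 1 (median 60.5) and between 5 and 537 in library 2 (median 217), and 29 of 51 had all 5 detected. Just inside the threshold lay 4 members with under 10 rule UMIs: 8 and 9 UMIs in library 1, 5 and 9 in library 2. None of these 4 had a Gata6 UMI, and the 2 of library 2 held 45 and 19 UMIs of the monocyte receptor Ccr2. Just outside lay 3 barcodes with 44, 211 and 256 rule UMIs that failed the neutrophil or lymphocyte limit and so counted among other C1q barcodes. They held most of the rule UMIs of other C1q barcodes in both libraries, so the levels of the rule genes given above for that class come mostly from them. A further 6 barcodes had 6 to 14 UMIs of a single rule gene.

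The name given to these cells was checked against a list of 12 cavity macrophage markers, 7 of which were the genes above. The 5 others, Gata6, Adgre1, Icam2, Timd4 and Selp, had UMIs in members of both libraries and summed to 1064 and 1114 CPM, against 115 and 141 in other C1q barcodes. The other 5 are Gata6, Adgre1, Icam2, Timd4 and Selp. Of 11 alveolar macrophage markers, 8 and 7 were at 0 in members, Siglecf, Ear1, Krt79, Fabp1, Plet1 and Atp6v0d2 in both libraries, and 4 were at 0 in other C1q barcodes of each. That list summed to 3049 and 6683 CPM in members, against 1582 and 1744. Its sum was mostly Chil3, and Marco stood at 134 and 16.1 CPM in members against 0.69 and 0.527. The 10 neutrophil markers, which hold genes of the rule, summed to 3205 and 2271 CPM in members against 1603 and 1304. Lcn2 stood at 650 and 694 CPM against 64.4 and 51.2, and S100a8 at 1658 and 980 against 935 and 756. S100a9 and Csf3r were also higher in both libraries, Cxcr2 was lower in both, and Retnlg and Mmp8 changed order between them. Ngp, Ltf and Camp were at 0 in members of both libraries but had at most 6 UMIs in other C1q barcodes of either. The 6 monocyte markers, none at 0, summed to 3571 and 9498 CPM against 4243 and 8314. Chil3 made up most of this sum in members too, at 2912 and 6649 CPM against 1567 and 1716. Ly6c2, Ccr2, Vcan, F13a1 and Plac8 were each lower in members in both libraries. The part of these cell types in the results was not tested. Markers of eosinophils, mast cells and basophils, and mesothelial cells had no UMI in any member.

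**Figure D1:**
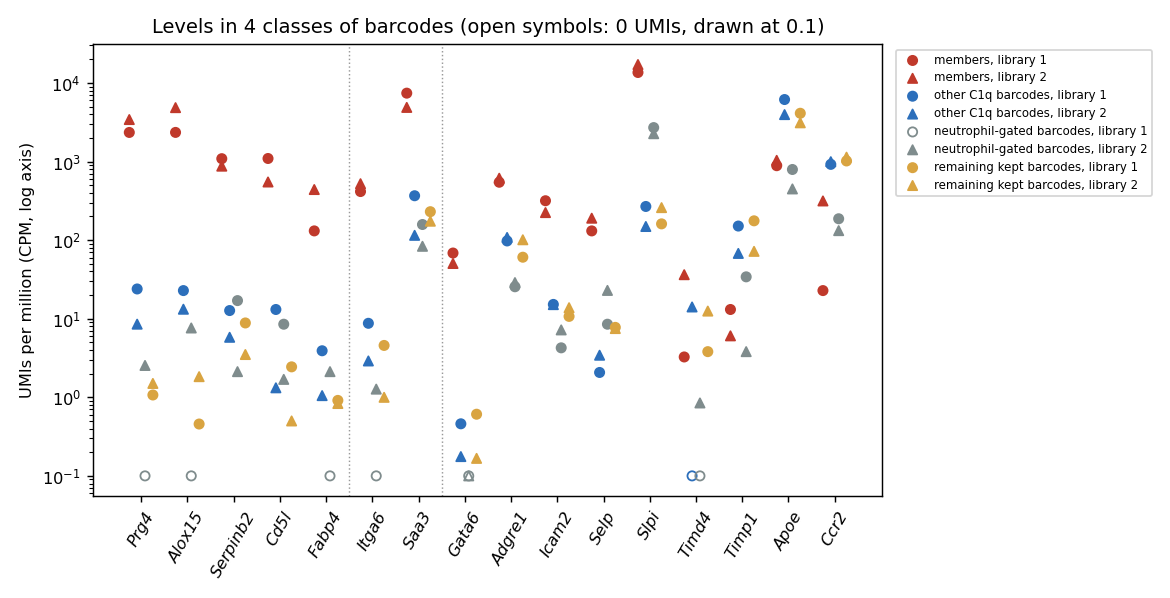
Level of 16 genes in 4 classes of barcodes, in CPM on a log axis, with 1 symbol for each class and library and open symbols for 0 UMIs. Left of the first dotted line are the genes of the rule, between the lines Itga6 and Saa3; Gata6, Adgre1, Icam2, Selp and Slpi lie higher in members than in all 3 other classes of both libraries, while Timp1, Apoe and Ccr2 lie below other C1q barcodes and Timd4 overlaps between libraries.

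Because Gata6 defines these macrophages, the promoters of the 5 rule genes and of the 15 genes with the largest increase were searched for the letters that GATA factors read, AGATAA or TGATAA on either strand. RefSeq promoters (250 bases before to 50 after a gene start, GRCm38.p6) were at hand for 13 of the 20 genes, 19 promoters in all. The 3 genes whose promoters are printed here are Cd5l and Serpinb2, which helped to choose the members, and Ces2g, a carboxylesterase among the genes with the largest increase. Capitals mark each match, which in Ces2g includes 1 on the other strand.
Cd5l, chr3:87357631-87357930, plus strand: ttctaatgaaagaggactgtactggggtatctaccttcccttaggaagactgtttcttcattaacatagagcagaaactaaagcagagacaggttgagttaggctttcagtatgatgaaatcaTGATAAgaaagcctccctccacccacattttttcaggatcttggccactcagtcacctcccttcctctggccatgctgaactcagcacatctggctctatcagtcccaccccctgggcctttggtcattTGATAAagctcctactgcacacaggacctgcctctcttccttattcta
Ces2g, chr8:104961468-104961767, plus strand: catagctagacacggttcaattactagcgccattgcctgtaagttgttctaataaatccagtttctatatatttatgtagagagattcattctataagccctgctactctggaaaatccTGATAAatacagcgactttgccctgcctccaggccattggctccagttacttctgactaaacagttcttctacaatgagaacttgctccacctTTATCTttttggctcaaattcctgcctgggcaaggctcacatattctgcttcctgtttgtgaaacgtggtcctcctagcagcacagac
Serpinb2, chr1:107511260-107511559, plus strand: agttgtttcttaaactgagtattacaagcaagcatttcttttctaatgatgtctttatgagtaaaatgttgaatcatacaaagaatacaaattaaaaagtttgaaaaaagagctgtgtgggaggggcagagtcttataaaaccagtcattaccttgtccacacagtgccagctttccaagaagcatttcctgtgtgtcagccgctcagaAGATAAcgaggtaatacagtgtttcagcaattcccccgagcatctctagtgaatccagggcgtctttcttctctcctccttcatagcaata
The matches begin at -127 and 3 from the start of Cd5l, at -131 and -38 for Ces2g and at -41 for Serpinb2. For Serpinb2 this counts from the start of the printed promoter, 1 of 2 of that gene. Its other promoter, chr1:107511173-107511472, around the annotated gene start at 107511423, held 0 whole matches. That stretch ends partway through the same AGATAA, which thus lies downstream of the annotated start. In all, 4 of the 19 promoters (21.1%) held a match, the remaining gene being Cldn10, against 6115 of 32851 promoters of the table (18.6%) and 71 of 484 promoters (14.7%) of the genes called higher in members below. The share is thus near that of all promoters, and a match describes letters, not a bound site. The retinoid receptor element known as DR5 (a direct repeat, searched on either strand) was in 0 of the 19 and in 3 of all 32851 (0.00913%).

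UMIs were summed over the members and over the other C1q barcodes of each library, and the 4 sums were tested with edgeR with the library as a block. Of 8756 genes tested, 775 (8.85%) passed an adjusted p of 0.05, 518 (5.92%) higher and 257 (2.94%) lower in members, and 774 of the 775 had that direction in both libraries (by the log2 ratio of CPM with 0.5 UMIs added). The median log2 fold change of all tested genes was -0.05. A gene near 0 in 1 class could pass the low-count filter through the other class alone, and could then only come out higher in that other class. The counts of list genes below include such genes. A standard error beside a log2 fold change was derived from this fit (n = 2 libraries). It is the absolute log2 fold change divided by the square root of the moderated F statistic. Without the library block 161 genes were called.

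**Figure D2:**
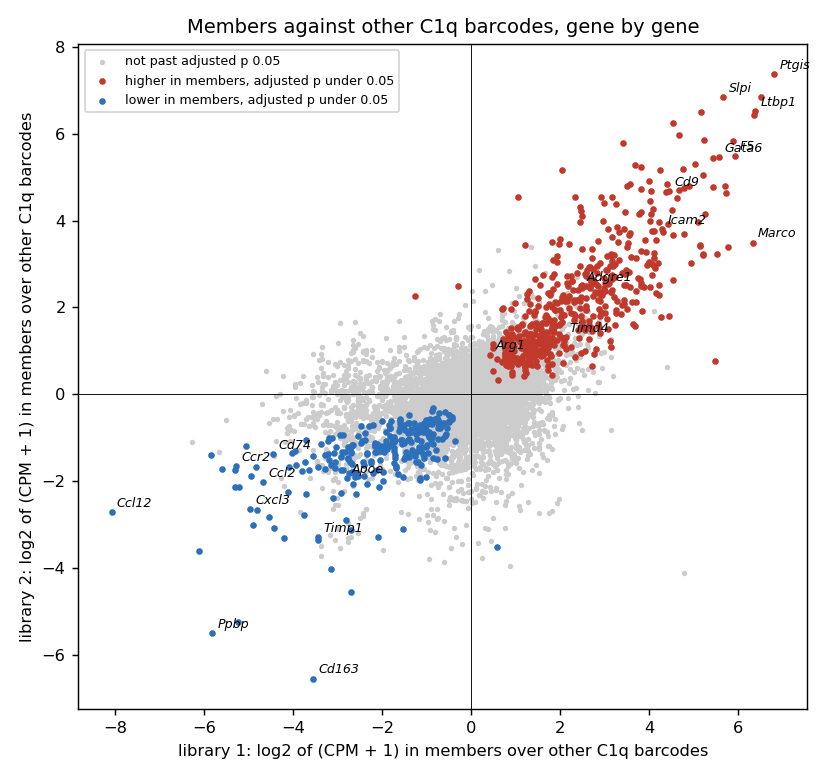
Each point is a gene tested; the axes give the log2 ratio of CPM + 1 in members over other C1q barcodes in library 1 (horizontal) and library 2 (vertical), and colour marks the edgeR call. All but 3 of the called genes lie in the upper right or lower left on this scale, with Ptgis, Slpi and Ltbp1 at one end and Ppbp and Cd163 at the other.

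Most tested genes of the resident cavity programme were higher. A list of cavity macrophage genes, drawn up with earlier results of these data known, held 18 tested genes without the rule genes, Itga6 and Saa3. Of these 15 rose and none fell (5.92% and 2.94% of all tested genes), with a median log2 fold change of 5.06. Ltbp1, Garnl3, Gata6, Aspa, Cxcl13, Nt5e and Selp were so low in other C1q barcodes that they passed the filter through the members alone. They could only come out higher, so the count and the median describe the members and are not a test of the programme. Naip1, Tgm2 and Timd4 were not called, and Tgm2 stood at 71.8 and 218 CPM against 80.3 and 240. Vsig4 (a UMI in 0 of 28 and 1 of 23 members) and Tgfb2 (in 1 and 5) were too low to be tested. Gata6 stood at 68.5 and 50.4 CPM in members (mean 59.5 ± 12.8, SD, n = 2) and at 0.46 and 0.176 in other C1q barcodes, from 46 and 4 UMIs (log2 fold change 7.58 ± 0.55 SE, edgeR adjusted p = 7.74e-05). A Gata6 UMI was found in 12 of 28 members (42.9%, interval 24.5% to 62.8%) of library 1 and 14 of 23 (60.9%, 38.5% to 80.3%) of library 2, and in 2 of 352 and 1 of 602 other C1q barcodes. No neutrophil-gated barcode held one (0 of 84 and 0 of 1466, at medians of 2201 and 1333 UMIs); thinned to 2000 UMIs each, 7.14% and 17.4% of members had a Gata6 UMI. Adgre1 stood at 545 and 613 CPM against 97.6 and 108 (2.48 ± 0.17, adjusted p = 5.18e-05), and Icam2 at 317 and 224 against 15.2 and 15.1 (4.10 ± 0.22, adjusted p = 1.39e-05). These 3 genes passed in every alternative that tested them.

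Most other genes of the programme rose too. Ltbp1, which holds latent TGF-beta in the matrix, stood at 101 and 139 CPM against 0.23 and 0.527 (8.10 ± 0.38, edgeR adjusted p = 8.05e-06). Garnl3, a Rap GTPase-activating protein relative, rose by 7.79 ± 0.36 and Aspa, an aspartoacylase, by 6.74 ± 0.37 on the log2 scale. Fcna (ficolin A, a lectin of the complement system) rose by 5.64 ± 0.40, Nt5e (CD73, which makes adenosine) by 5.54 ± 0.54 and Bhlhe40, a transcription factor that cavity macrophages need to proliferate, by 3.18 ± 0.31. Cxcl13, the B cell chemokine of body cavities, rose by 7.70 ± 0.93 (adjusted p = 0.00124) on few UMIs: it came from 1 member of library 1 and 2 members of library 2. Timd4, the TIM-4 receptor for phosphatidylserine, is a mark of long-resident cavity macrophages and did not pass (3.26 and 36.3 CPM against 0 and 14.1, adjusted p = 0.181). It was detected in 1 of 28 and 6 of 23 members, and in 0 of 352 and 55 of 602 other C1q barcodes, and it passed in 2 of 15 alternatives.

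Slpi, a secreted inhibitor of neutrophil serine proteases, was chosen for description after its values were seen. It took 13579 and 17137 CPM of members, against 268 and 149 of other C1q barcodes (6.24 ± 0.29, edgeR adjusted p = 7.94e-06). Neutrophil-gated barcodes, which make Slpi too, held 2703 and 2259 CPM, so members lay above them in both libraries. Single members ranged from 0.585 to 772 Slpi UMIs per 10000 in library 1 (median 33.4), so a few members held most of it there.

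Among the 15 genes with the largest increase were several that other C1q barcodes lacked or nearly lacked. Such genes passed the filter through the members alone and could only come out higher. Prss35, a serine protease-like gene, had 22 UMIs in members and 0 in other C1q barcodes, at least 144-fold higher (against a floor of 3 counts over the group). It lost its call with DESeq2 (adjusted p = 0.284). Ces2g, whose promoter is shown above, had 31 UMIs against 1, a ratio of 608 with a counting interval of 101 to 24776. Cald1 (caldesmon, an actin-binding protein) had 27 against 1, Me1 (malic enzyme, which makes NADPH) 47 against 2 and Adarb1 (an RNA-editing adenosine deaminase) 26 against 3. Cyp26a1, which degrades retinoic acid, had 29 UMIs against 1 (ratio 569, interval 94.3 to 23227). Fgfr1, a fibroblast growth factor receptor, was well covered, with 288 UMIs against 36 (428 and 317 CPM against 3.68 and 1.76, 7.18 ± 0.27, edgeR adjusted p = 4.03e-06). Bcam (a laminin receptor), Cldn10 (a claudin), Gm10369 and Gm16587 completed the 15. Gm16587 lies on the strand opposite to Selp, and since the use of strand in counting is not stated, its UMIs cannot be told apart from those of Selp.

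Of 23 tested transcription factors and nuclear receptors, 7 rose and 4 fell (5.92% and 2.94% of all tested genes), with a median of 0.03. Beside Gata6 and Bhlhe40, the risers were Rarb, a retinoic acid receptor (19.6 and 14.1 CPM against 0.92 and 0.0879, 5.40 ± 0.88, edgeR adjusted p = 0.00574), Id1 (3.12 ± 0.36), Nfe2 (2.16 ± 0.32), Id2 (1.64 ± 0.22) and Klf2 (1.31 ± 0.14). The other retinoid receptors did not pass: Rara had a log2 fold change of -0.15, Rarg of 0.42, Rxrb of 0.26 and Rxra of 1.82 (adjusted p = 0.0629). Maf fell by 2.20 on the log2 scale (42.4 and 78.7 CPM against 290 and 277, SE 0.26, edgeR adjusted p = 0.00119), and Irf8, Irf5 and Zeb2, which act in monocytes and dendritic cells, also fell. Spi1, which encodes the pan-macrophage factor PU.1, stood at 685 and 635 CPM against 641 and 646.

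Adhesion genes rose in 12 of 18 tested and fell in none (5.92% and 2.94% of all tested genes), with a median of 1.15. Of the risers, Cd9, Icam2, Selp and Thbs1 were already counted in the cavity list. P-selectin (Selp), better known from platelets and endothelium, stood at 131 and 190 CPM against 2.07 and 3.43 (5.83 ± 0.28, edgeR adjusted p = 8.37e-06) and had a UMI in 19 of 28 and 20 of 23 members. It had a UMI in 5 of 352 and 30 of 602 other C1q barcodes and in 2.38% and 3.48% of neutrophil-gated barcodes. The tetraspanins Cd9 (1273 and 984 CPM against 57.5 and 37.6, 4.58 ± 0.18) and Cd81 (3.59 ± 0.24) rose, as did Itgb1, the beta chain that pairs with integrin alpha 6 (809 and 740 CPM against 135 and 193, 2.24 ± 0.19). Smaller increases were those of Fn1 (fibronectin, 1.71), Itgb7 (1.25), Itgb2 (1.19), Itgam (CD11b, 0.87) and Thbs1 (0.68). The 7 platelet markers summed to 4171 and 1565 CPM in members and to 15722 and 3458 in other C1q barcodes, nearly all of it Pf4 and Ppbp. Of these markers 4 and 3 had UMIs in members, with Itga2b, Gp1bb and Treml1 at 0 in both libraries, and 3 and 4 had UMIs in other C1q barcodes, with Gp9, Gp1bb and Gp6 at 0 in both. The part of platelet RNA was not tested.

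Coagulation genes rose in 5 of 9 tested and fell in 2 (5.92% and 2.94% of all tested genes), with a median of 2.20. Of the risers, F5 and F10 were already counted in the cavity list. Factor V (F5) stood at 268 and 325 CPM against 3.45 and 6.24 (5.89 ± 0.25, edgeR adjusted p = 4.99e-06), factor VII (F7) at 248 and 186 against 21.6 and 9.22 (3.92 ± 0.27) and factor X (F10) at 747 and 712 against 150 and 163 (2.21 ± 0.16). Factor V is the cofactor of factor X, and factor VII starts the cascade with tissue factor, whose gene F3 was too low to be tested. The anticoagulant Pros1 (94.7 and 105 CPM against 20.5 and 22.8, 2.20 ± 0.25) also rose. F13a1, the clot-crosslinking factor XIII that monocytes express, fell by 2.41 ± 0.35 and Anxa2 by 0.67 ± 0.14.

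Complement genes rose in 7 of 10 tested and fell in 2 (5.92% and 2.94% of all tested genes). C4b stood at 147 and 442 CPM against 5.52 and 22.6 (4.43 ± 0.23, edgeR adjusted p = 1.16e-05), C3 at 35.9 and 113 against 2.99 and 23.2 (2.57 ± 0.35, adjusted p = 0.00221), and Cfb, Cfp, Cr1l and Itgam were among those that rose by less. The anaphylatoxin receptors C5ar1 (-1.33 ± 0.19) and C3ar1 (-1.25 ± 0.27) fell. DESeq2 called 2 of 11 complement genes higher and 2 lower, and edgeR without the library block called 0 of 10 (6 higher and 2 lower at an unadjusted p under 0.05); Cfb passed in 13 of 17 alternatives. Lbp, which carries bacterial lipopolysaccharide and was picked after its values were seen, stood at 245 and 173 CPM against 5.52 and 2.02 (5.94 ± 0.31, adjusted p = 1.17e-05). C1qa itself, which chose the comparison class, stood at 1061 and 1019 CPM in members and 1757 and 1093 in other C1q barcodes.

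Beside Alox15, 4 of 11 tested genes of eicosanoid synthesis rose and none fell (5.92% and 2.94% of all tested genes), with a median of 0.36. Ptgis, prostacyclin synthase, stood at 343 and 309 CPM against 2.07 and 0.879 (7.94 ± 0.31, edgeR adjusted p = 4.03e-06), and Ptgs1, the constitutive cyclooxygenase upstream of it, at 281 and 373 against 15.6 and 18.6 (4.24 ± 0.21, adjusted p = 8.41e-06). Alox5, which starts leukotriene synthesis, stood at 140 and 184 CPM against 24.4 and 8.96 (3.49 ± 0.41), and Ltc4s, leukotriene C4 synthase, at 679 and 331 against 282 and 66.3 (1.77 ± 0.26). The thromboxane synthase gene Tbxas1 had near-equal levels (118 and 121 CPM against 120 and 128) and the inducible cyclooxygenase gene Ptgs2 was too low to be tested.

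**Figure D3:**
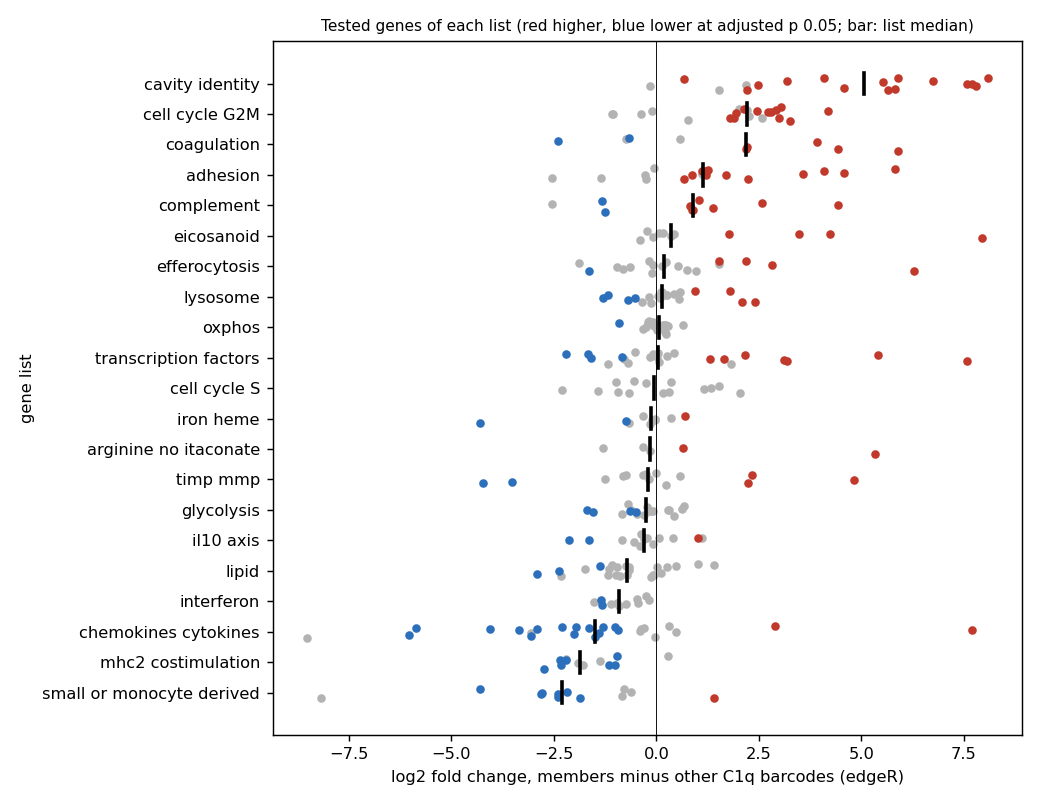
Each point is a tested gene of 1 of 21 gene lists, placed at its log2 fold change between members and other C1q barcodes; red and blue mark genes called higher and lower with edgeR at adjusted p 0.05, grey those not called, and the bar is the list median. The cavity list lies farthest to the right (median 5.06) and the list of small macrophage and monocyte genes farthest to the left (median -2.29).

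The series is titled after efferocytosis, by which phagocytes clear dying cells, and after the inhibitor TIMP1. Of 18 tested efferocytosis genes 4 rose and 1 fell (5.92% and 2.94% of all tested genes), with a median of 0.19. Neither Mertk, a receptor kinase that binds dying cells through bridging proteins, nor Timd4 was among those that rose. Mertk stood at 45.7 and 58.5 CPM against 27.4 and 26.2 (log2 fold change 0.98 ± 0.29, edgeR adjusted p = 0.0826) and passed in 5 of 17 alternatives; its lowest and highest adjusted p over these were 0.0105 and 0.816. Axl, at 9.79 and 0 CPM against 1.84 and 4.66, had the opposite order in each library (adjusted p = 0.967). The risers were Marco, a scavenger receptor (134 and 16.1 CPM against 0.69 and 0.527, 6.28 ± 0.63), Mfge8, a bridging molecule (2.83 ± 0.40), Pros1, which bridges to Mertk, and Anxa1 (1.53 ± 0.16). Marco was uneven, with a UMI in 9 of 28 members of library 1 and up to 24.0 UMIs per 10000 in one of them. Stab1, another scavenger receptor, fell by 1.63 ± 0.30.

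Timp1, a secreted inhibitor of metalloproteinases, was low in members. It stood at 13.1 and 6.05 CPM (7 UMIs in 51 members) against 151 and 67.7 in other C1q barcodes (-3.52 ± 0.36, edgeR adjusted p = 4.62e-04), a ratio of 10.4 with a counting interval of 5.03 to 25.9. The call was lost in 1 of 17 alternatives, edgeR without the library block (adjusted p = 0.0669). Timp1 lies on the X chromosome inside Syn1, which is on the other strand and had 73 UMIs in all barcodes against 3045 of Timp1. Timp2 went the other way, at 323 and 238 CPM against 88.4 and 34 (2.33 ± 0.26, adjusted p = 7.38e-04), with the same single loss. Of 14 tested genes of TIMPs, metalloproteinases and their partners, 3 rose and 2 fell (5.92% and 2.94% of all tested genes). Timp2, Itgb1 and Mmp12, the macrophage elastase (4.83 ± 0.53), rose. Timp1 and the membrane-bound Mmp14 (-4.23 ± 0.85) fell. Cd63, a cell-surface partner of TIMP1, stood at 493 and 58.5 CPM against 354 and 62.5 and was not called.

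Genes of small cavity macrophages, interstitial macrophages and monocytes fell in 7 of 12 tested, and 1 rose (2.94% and 5.92% of all tested genes). Cd163, the haemoglobin scavenger receptor, stood at 22.8 and 0 CPM against 278 and 92 (-4.29 ± 0.47, edgeR adjusted p = 7.35e-04). Mrc1 (CD206, -2.79 ± 0.32), Folr2 (-2.40 ± 0.32), Ms4a4c (-2.18 ± 0.37) and Vcan (-1.87 ± 0.29) fell, as did Ccr2, the receptor that brings monocytes into tissue (22.8 and 315 CPM against 920 and 995, -2.82 ± 0.58, adjusted p = 0.018). Ccr2 was thus far apart between the members of the 2 libraries, and its call was lost with DESeq2 (adjusted p = 0.233). Chil3, a chitinase-like protein, rose (2912 and 6649 CPM against 1567 and 1716, 1.41 ± 0.23).

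Antigen presentation genes fell in 7 of 12 tested and rose in none (2.94% and 5.92% of all tested genes), with a median of -1.86. H2-Aa stood at 65.3 and 1039 CPM against 1028 and 2571 (-2.34 ± 0.48, edgeR adjusted p = 0.0171) and Cd74, the invariant chain, at 150 and 3099 against 3317 and 8081 (-2.75 ± 0.59, adjusted p = 0.0203). H2-Aa in members of library 2 was as high as in other C1q barcodes of library 1, and DESeq2 called 1 gene of the list. Markers of dendritic cells, which are rich in class II molecules, summed to 6.53 and 12.1 CPM in members and 21.9 and 53.2 in other C1q barcodes, and B cell markers to 0 and 6.05 against 8.05 and 22.4; their part in the result was not tested.

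Chemokines and cytokines fell in 15 of 25 tested and rose in 2 (2.94% and 5.92% of all tested genes), with a median of -1.49. Ccl8 was found once in members (0 and 2.02 CPM against 36.8 and 113), a ratio of 73.6 with a counting interval of 13.2 to 2910. The monocyte chemoattractant Ccl2 stood at 55.5 and 369 CPM against 1437 and 1501 (-3.05 ± 0.48, edgeR adjusted p = 0.00489), Ccl12 at 0 and 86.7 against 269 and 572, and Cxcl3, which attracts neutrophils, at 16.3 and 14.1 against 543 and 93.6 (-4.05 ± 0.43, adjusted p = 6.37e-04). Il1b fell by 1.31 ± 0.24. DESeq2 called 8 of 28 genes of the list lower, and edgeR without the library block called 0 of 25 lower (14 at an unadjusted p under 0.05). Both left Ccl12 short of the threshold, at adjusted p = 0.431 and 0.262. Ppbp, a chemokine best known from platelets, fell by 5.87 ± 0.23 (39.2 and 4.03 CPM against 2265 and 226), and Pf4 by 1.4 ± 0.16. Both are among the platelet markers whose sums are given beside Selp, and the part of platelet RNA in their fall was not tested. Cxcl1 rose with Cxcl13 (16.3 and 58.5 CPM against 6.44 and 4.48, 2.90 ± 0.58, edgeR adjusted p = 0.0148). Few members held its UMIs: 5 lay in 2 members of library 1. In library 2, 8 lay in 4 members of the BC2 side and 21 in 3 members of the BC3 side, the antibody tags described below. No gene of the list was called higher with barcodes thinned to 4000 UMIs or with library 2 limited to the BC2 side. Further genes among the 15 with the largest decrease were Gja1 (connexin 43, 0 and 2.02 CPM against 67.9 and 35.8), Tnfsf9 (the 4-1BB ligand), Kdm2b, Spon1, Ccnd2 (cyclin D2) and Ms4a4b. Ms4a4b is a T cell gene, and T and NK cell markers summed to 0 and 6.05 CPM in members, whose rule bars 3 of them, against 0.46 and 252 in other C1q barcodes.

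In metabolism, 3 of 24 tested lipid genes fell and none rose. For this list and those that follow here, 2.94% of all tested genes fell and 5.92% rose. Apoe, an apolipoprotein that many tissue macrophages secrete, stood at 885 and 1035 CPM against 6149 and 3953 (-2.37 ± 0.20, edgeR adjusted p = 1.99e-04), Lpl, lipoprotein lipase, fell by 2.91 ± 0.46 and Trem2 by 1.37 ± 0.34. Of the glycolysis list 4 of 18 fell (Bnip3 by 1.70 ± 0.24, Hif1a by 1.54 ± 0.21, Tpi1 by 0.64 ± 0.15 and Pkm by 0.49 ± 0.12). Of 20 respiratory chain genes 1 fell (Cycs, by 0.90 ± 0.24, edgeR adjusted p = 0.0499), near the share of all tested genes, and the list median was 0.07. These calls were fragile: DESeq2 called 2 of the 18 glycolysis genes, Pkm passed in 10 of 17 alternatives, and Tpi1 and Cycs each passed in 13. Lysosomal genes split, 4 of 20 higher (among them Gaa 2.08 ± 0.28, Ctsd 1.79 ± 0.13 and Grn 0.94 ± 0.14) and 4 lower (Ctsc, Lgmn, Ctss and Ctsb, from -1.31 to -0.51). Slc7a2, an arginine transporter, stood at 108 and 40.3 CPM against 1.84 and 1.32 (5.33 ± 0.44, adjusted p = 1.75e-04). Arginase 1 (Arg1), which consumes arginine, stood at 7703 and 2249 CPM against 5740 and 1192 (0.65 ± 0.14, adjusted p = 0.0192), a small change that was lost in 5 of 17 alternatives. Iron handling was nearly even, with Fth1 (0.70 ± 0.09) higher and Hmox1 (-0.74 ± 0.14) and Cd163 lower of 10 tested. Of 11 interferon-induced genes 2 fell (Isg15 by 1.34 ± 0.23 and Ifitm3 by 1.32 ± 0.14). In the IL-10 axis Il10ra (-2.13 ± 0.48, adjusted p = 0.0249) and Il4ra (-1.65 ± 0.24) fell and Socs3 rose (1.02 ± 0.22). Il10 was near the limit of detection, at 0 and 8.07 CPM against 0.46 and 10.3 (adjusted p = 0.837), and Irg1, the gene of itaconate synthesis now called Acod1, at 0 and 6.05 against 0.46 and 14.9 (adjusted p = 0.394).

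Genes of mitosis were higher in members, while no gene of DNA replication was called in either direction. Of 21 tested genes of the G2 and M phases 12 rose and none fell (5.92% and 2.94% of all tested genes), with a median of 2.22. Some of them, such as Cenpe and Hmmr, were so low in other C1q barcodes that they passed the filter through the members alone. Ccnb2, a mitotic cyclin, stood at 222 and 105 CPM against 5.06 and 10.4 (4.20 ± 0.43, edgeR adjusted p = 4.94e-04), Birc5 (survivin) at 163 and 72.6 against 11.7 and 16 (2.93 ± 0.37) and Mki67 at 52.2 and 52.5 against 5.06 and 9.49 (2.80 ± 0.38). Of 14 tested S phase genes none was called by edgeR, with 4 at an unadjusted p under 0.05, and none by DESeq2. The S list summed to 268 and 208 CPM in members and 268 and 237 in other C1q barcodes, while the G2M list summed to 1335 and 720 against 172 and 215. Top2a, usually high in both S and G2, stood at 6.53 and 6.05 CPM against 10.4 and 14.6 (adjusted p = 0.379).

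Shares of barcodes with these transcripts were compared at one depth. With each barcode thinned to 2000 UMIs, 8 of 28 members (28.6%, interval 13.2% to 48.7%) in library 1 and 4 of 23 (17.4%, 4.95% to 38.8%) in library 2 had 3 or more G2M UMIs, a mean of 23.0%. In other C1q barcodes these were 4 of 352 (1.14%, 0.31% to 2.88%) and 14 of 596 (2.35%, 1.29% to 3.91%), and 6 barcodes of library 2 were too shallow. Unthinned, the shares were 50% and 30.4% against 5.97% and 16.1%. The intervals cover counting error only, and cells of 1 library are not replicates, so no p is given.

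The members with many G2M UMIs differed in makeup from the other C1q barcodes above the same threshold. There were 7 and 4 members with 20 or more G2M UMIs, against 4 and 22 other C1q barcodes. In these, Top2a had 0 and 2 UMIs in members against 35 and 133, and Cdk1 2 and 1 against 36 and 45. In CPM, Top2a was thus 0 (upper limit 40.2) and 25.9 (3.13 to 93.4) in members against 360 (251 to 501) and 159 (133 to 189). The S list stood at 491 and 310 CPM in these members and at 2264 and 959 in the other C1q barcodes, whereas Ccnb2 stood at 600 and 608 CPM against 216 and 129. The order of Top2a, Cdk1 and the S list was the reverse of that of Ccnb2 in both libraries, although for Cdk1 in library 2 the counting intervals met (0.327 to 72.0 CPM against 39.3 to 72.2); 20 was a threshold chosen after the data were seen. The 2 classes were not matched in G2M level: the list stood at 3786 and 4190 CPM in these members against 5536 and 2101. In library 1, 1 of the 4 other C1q barcodes held 327 of their 538 G2M UMIs. Of the 4 members of library 2, 3 lay on the BC3 side of the antibody tags described below, against 13 of all 602 other C1q barcodes. The part of depth and tag side in these differences was not tested. Without the barcodes that hold 3 or more G2M UMIs, 15 of 18 cavity genes still rose.

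**Figure D4:**
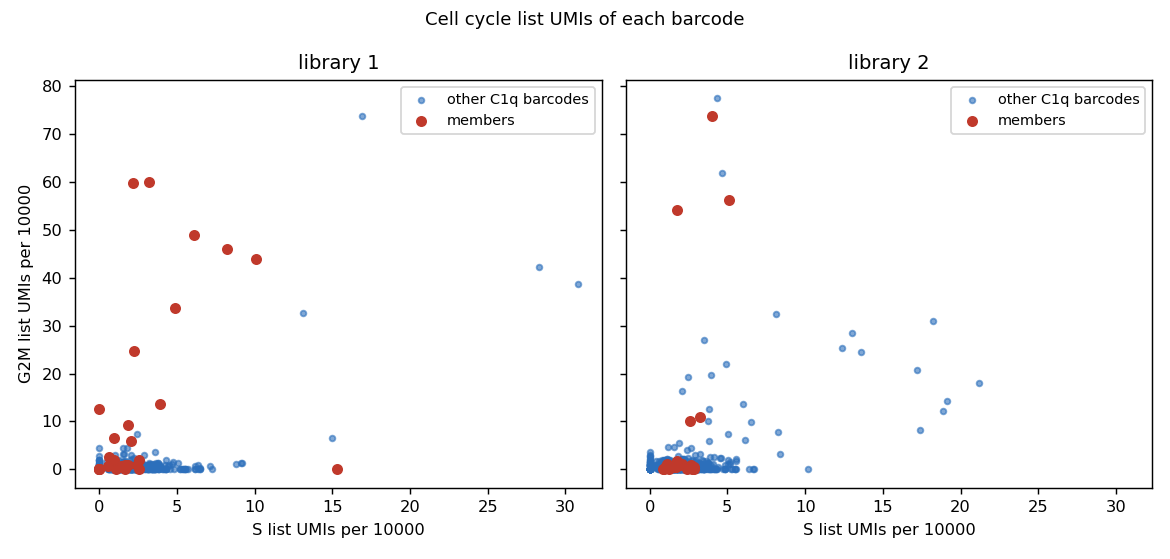
Each point is a barcode, with its UMIs of the S list (horizontal) and of the G2M list (vertical) per 10000 of its UMIs, for library 1 (left) and library 2 (right). Members with many G2M UMIs lie toward low S values, while several other C1q barcodes with many G2M UMIs lie farther right.

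Members of library 2 came from both sides of the library's antibody tags. Library 2 carries 2 tags on CD45, BC2 and BC3, of a purpose not stated in the labels, and 13 members had more BC2 and 10 more BC3 UMIs (43.5% BC3, interval 23.2% to 65.5%). Other C1q barcodes lay almost wholly on the BC2 side (13 of 602 on BC3, 2.16%, 1.15% to 3.66%), and neutrophil-gated barcodes on the BC3 side (97.8%). The library block of the tests does not take the tag side into account. Members on the BC2 side had 10 of 13 with Xist alone, the RNA of female cells, and 3 with both Xist and Y-linked UMIs. On the BC3 side 4 of 10 had Xist alone and 6 had Y-linked UMIs alone. In library 1, 10 of 28 had Y-linked UMIs alone and 18 neither. Members with RNA of either sex were thus present.

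The sides differed in several genes, given here as values of pooled barcodes with no test. Arg1 stood at 7703 CPM in library 1, 3118 on the BC2 side and 833 on the BC3 side. A member of library 1 held between 14.9 and 195 Arg1 UMIs per 10000 (median 74.5), and 6 of 10 BC3 members had any. Apoe stood at 885, 1640 and 47.8 CPM in the same order, and Mrc1 had no UMI on the BC3 side. The cavity genes were present on all 3, with Gata6 at 68.5, 42.3 and 63.7 CPM and Icam2 at 317, 163 and 324. Selp (131, 97.6 and 340 CPM), Slpi (13579, 11482 and 26359) and Prg4 (2344, 2369 and 5132) were highest on the BC3 side. Limited to BC2 members and comparators in library 2, 676 genes were called, 14 of 17 tested cavity genes rose and 5 of 16 G2M genes rose.

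Ccr2 UMIs in members of library 2 were held by a few barcodes. The 7 members with 3 or more Ccr2 UMIs were all on the BC2 side of library 2. They held 97.4% of the Ccr2 UMIs and 66.2% of the H2-Aa UMIs of that library's members, and between 5 and 278 rule UMIs. Their median depth was 30831 UMIs, against 22896 for all BC2 members. Scrublet, a caller of barcodes that hold 2 cells, marked 6 barcodes of library 1 (0.538%), 1 of them a member, and 1 of library 2 (0.0351%), so it bears little on library 2; whether these members are pairs of cells was not tested. Without these 7 members, an alternative chosen after the data were seen, 854 genes were called, the median of the small macrophage and monocyte list went from -2.29 to -3.64 with 7 of 12 lower, and 15 of 18 cavity genes rose.

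**Figure D5:**
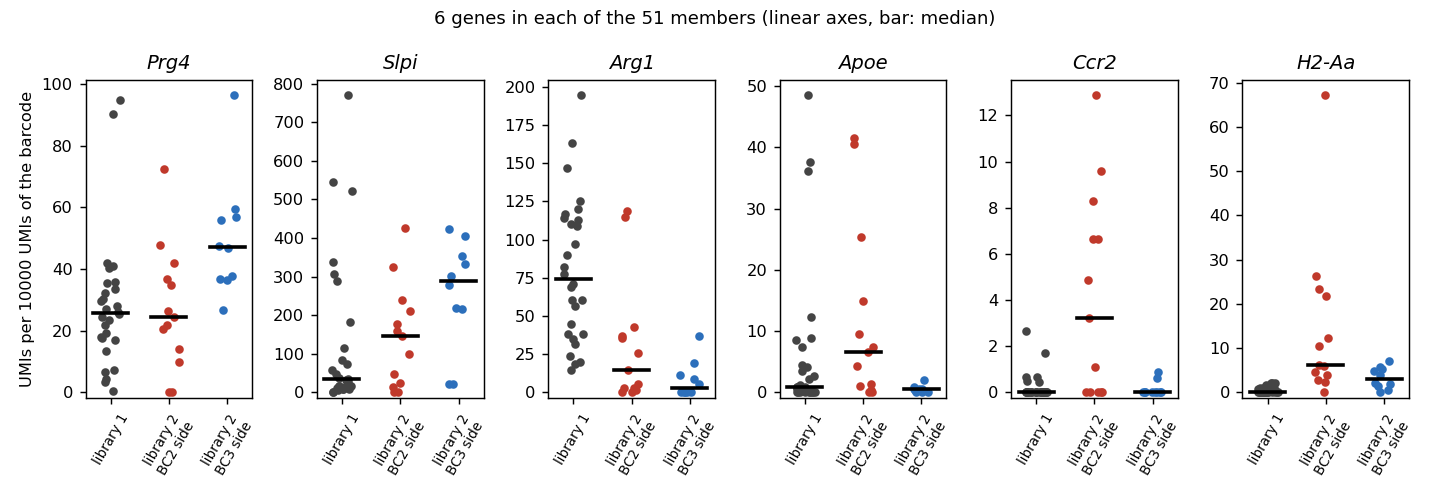
Each point is 1 of the 51 members, with its UMIs of the gene per 10000 of its UMIs on a linear axis, by library and tag side; bars are medians. Prg4 is present on all 3 sides, Arg1 is highest in library 1 and lowest on the BC3 side, and Ccr2 and H2-Aa are high in some BC2 members.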

How the data were processed

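Droplet 3' RNA-sequencing counts of 2 libraries were used. The authors deposited UMI counts per gene and barcode, limited to called cells; the submitters' processing notes name Cell Ranger 3.0.1 and mm10, while the sources used here give neither the annotation nor the use of strand. Barcodes needed 300 genes and at most 10% mitochondrial UMIs, which 3963 of 4049 had. Counts were summed per library and class and tested with edgeR 4.0.16 in R 4.3.3 (quasi-likelihood, TMM, filterByExpr, library as a block, 1 residual degree of freedom moderated across genes), with Benjamini-Hochberg adjustment over all genes and calls at 0.05. The library is a block because both classes come from the same libraries. Genes of the rule, Itga6 and Saa3 got no p. Some genes that the naming rule or the lists hold are counted but not reported by name here. Intervals are exact (Clopper-Pearson or Poisson, 95%) and cover counting error only. Genes named were, of those called with one direction in both libraries and 20 CPM or more, the 15 with the largest changes each way, up to 4 of each of 21 lists, and a fixed set of markers; others are said to be picked after their values were seen or are list members given with their lists. Members, lists and rule were chosen with earlier results of these data known. DESeq2 1.42.0, other scalings, filters, thresholds, thinning, Scrublet in scanpy 1.11.5 and tag limits served as alternatives.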

Additional observations from a re-analysis of the deposited data

How the results depend on the processing

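Between 369 and 1329 genes were called under the alternatives that kept the library block, against 775 as reported. The fit without the replicate block called 161 (153 higher, 8 lower), all among the 775, and none of the class II list (2 lower at an unadjusted p under 0.05). It called 5 of 18 adhesion, 5 of 21 G2M and 14 of 18 cavity genes higher and 1 of 12 small macrophage and monocyte genes lower. DESeq2 called 440 (324 and 116), 417 of them shared, and thinning to 4000 UMIs called 369 (249 and 120). More were called with no filter on low counts (1207, 635 and 572), without Fabp4 in the rule (1329, 780 and 549), with members limited to 10 or more C1q UMIs (1163, 695 and 468) and without Scrublet doublets (1239, 736 and 503), although the last removes 1 member. Of 91 named genes with a call, 35 kept it in every alternative; 52 lost it without the block, 24 with DESeq2 and 16 on thinning. Directions turned for Axl (-0.12 with DESeq2, -0.00 against comparators with 30 or more C1q UMIs, -0.37 with C1q-limited members) and Il10 (0.23 on the BC2 side), neither called. The cause was not tested. The share of members ranged from 0.808% to 2.51% without replicate 1 or 2, and that of cycling members from 17.4% to 28.6%; unthinned it was 40.2%. Depth limits genes with few UMIs: over all 51 members Timp1 rested on 7 and Gata6 on 46.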
